A study of Mus musculus with 8 samples.

Results

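Skeletal muscle RNA in transplanted CT26 tumours was read through 9 genes: the adult fast myosin heavy chain genes Myh4, Myh1 and Myh2, the slow gene Myh7, the developmental genes Myh3 and Myh8, and the myogenic regulators Myod1, Myog and Pax7. They were taken by symbol and were 9 of the 56953 Ensembl identifiers in the table of raw counts. The set was chosen on counts of the mLJZD and saline tumours, with earlier results known, so the levels there are a description with no test. CT26 is a mouse colorectal carcinoma cell line. The tumours were transplants of CT26 treated with mLJZD or with normal saline, and the cultures were CT26 cells kept for 48 hours in 10% serum containing mLJZD or 10% control serum. The labels do not expand mLJZD and give no age, sex, strain or graft site of the host animals. Each of the 4 groups had 2 libraries, and the labels do not say whether each library had its own animal or culture. A p-value here thus reflects how far 2 libraries of a group lay apart, and that distance may be technical.

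A myosin heavy chain is the motor protein of the thick filament, and each adult fibre type is known by the heavy chain it holds. In mouse muscle Myh4 encodes the chain of the fastest, glycolytic IIb fibres, Myh1 that of IIx fibres, Myh2 that of IIa fibres, which are fast but oxidative, and Myh7 that of slow fibres. Myh3 and Myh8 encode the embryonic and perinatal chains, which come back for a time when muscle regenerates. Pax7 marks satellite cells, the stem cells of muscle. Myod1 commits their progeny to the lineage and Myog drives the last step of differentiation, and both also respond to loss of nerve supply.

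The library totals were 18324302 and 16594912 counts in mLJZD tumours, against 19692863 and 19793632 counts in saline tumours, and lay between 20439449 and 29363861 counts in cultures. The libraries of a group differed by more than counting noise, by a chi-square per degree of freedom of 4.15 in mLJZD tumours and 2.69 in saline tumours. The carcinoma keratin gene Krt18 had 34 and 37 counts in mLJZD tumours against 327 and 312 in saline tumours, and 655 to 914 in the cultures. Krt8, its partner keratin gene, had 5 and 6 counts in mLJZD tumours against 47 and 65 in saline tumours. Epcam, a common epithelial marker, had 6 to 16 counts per tumour library and none in the cultures. Whether the carcinoma share of a tumour library bears on the muscle levels was not tested.

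Of the 9 symbols, 8 had an entry in the RefSeq table of promoters, windows of 300 bases from 250 before to 50 after an annotated start. The windows of the adult fast genes on chromosome 11, GRCm38.p6, plus strand, are shown because these neighbouring genes stood apart in the tumours. They lie at chr11:67237562-67237861 for Myh4, chr11:67199852-67200151 for Myh1 and chr11:67170777-67171076 for Myh2. Capitals mark the letters of an E-box (CANNTG, the frame that Myod1 and Myog proteins bind), a MEF2 core (TATTTATA) or a TATA box (TATAAA), each searched on both strands. A MEF2 core always holds the letters of a TATA box.
Myh4: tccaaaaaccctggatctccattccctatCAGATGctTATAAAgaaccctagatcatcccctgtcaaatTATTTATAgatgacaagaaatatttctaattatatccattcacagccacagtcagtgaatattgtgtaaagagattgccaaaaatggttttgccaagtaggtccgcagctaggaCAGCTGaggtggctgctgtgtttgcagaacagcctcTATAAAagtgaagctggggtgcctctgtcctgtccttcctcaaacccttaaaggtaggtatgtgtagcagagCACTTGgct
Myh1: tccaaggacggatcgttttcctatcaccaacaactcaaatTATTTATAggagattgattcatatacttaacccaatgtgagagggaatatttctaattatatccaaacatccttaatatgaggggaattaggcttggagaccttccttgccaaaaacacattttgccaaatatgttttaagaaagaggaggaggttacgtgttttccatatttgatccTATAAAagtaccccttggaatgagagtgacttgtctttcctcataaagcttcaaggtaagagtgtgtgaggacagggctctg
Myh2: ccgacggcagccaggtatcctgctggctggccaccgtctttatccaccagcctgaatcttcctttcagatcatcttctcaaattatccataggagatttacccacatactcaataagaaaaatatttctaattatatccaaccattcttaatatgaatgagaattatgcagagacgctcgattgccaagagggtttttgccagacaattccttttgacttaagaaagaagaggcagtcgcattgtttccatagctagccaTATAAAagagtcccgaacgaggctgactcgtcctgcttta

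The Myh4 window held 3 E-boxes and the windows of Myh1 and Myh2 none. An E-box stood in 72.3% of all 32851 windows of this table, so its presence is common. A MEF2 core stood in the windows of Myh4, Myh1 and Myh8, and in 1.70% of all windows. A TATA box stood in the windows of all 3 adult fast genes and in 13.6% of all windows. The only TATA box of Myh2 lay after its annotated start, at 10 to 15, while Myh4 had one at -31 to -26 and Myh1 at -32 to -27. The windows of Myh4, Myh1 and Myh2 shared a run of 20 bases, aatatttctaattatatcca, found in 3 of the 32851 windows. It began at -163 in Myh4, -165 in Myh1 and -130 in Myh2, so the Myh2 window covers a shifted stretch. A match of letters is not a bound site, and a missing match says only that the letters are not in the window.

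**Figure D1:**
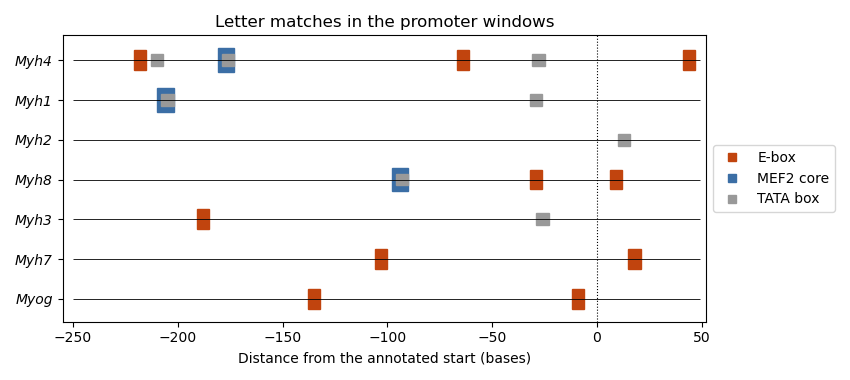
Matches of the E-box, the MEF2 core and the TATA box along 7 promoter windows, with the distance from the annotated start in bases on the horizontal axis. Myh4 has 3 E-boxes, Myh1 and Myh2 have none, and MEF2 cores stand in Myh4, Myh1 and Myh8. Each grey box inside a blue box is the TATA box that a MEF2 core contains.

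Myh4, the IIb heavy chain, was the most abundant of the 9 genes in tumours. It had 1321 and 1161 counts in mLJZD tumours, or 72.1 and 70.0 CPM (counts scaled to the library total), against 15179 and 15451 counts, or 770.8 and 780.6 CPM, in saline tumours. The libraries of each group lay close together and the groups were far apart. The log2 fold change, mLJZD over saline here and throughout, was -3.42 (SE 0.05).

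Myh1, the IIx heavy chain, was also lower, by less. Its level was 52.4 and 54.5 CPM in mLJZD tumours against 130.0 and 133.8 CPM in saline tumours, a log2 fold change of -1.27 (SE 0.05). Myh2, the IIa heavy chain, went the other way. It had 352 and 370 counts (19.2 and 22.3 CPM) in mLJZD tumours against 199 and 180 counts (10.1 and 9.09 CPM) in saline tumours, a log2 fold change of 1.14 (SE 0.12). For neither gene did the groups overlap. The genes follow each other on chromosome 11 of GRCm38 in the order Myh3, Myh2, Myh1, Myh4, Myh8, and the 3 adult genes thus differed in size or direction while side by side.

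These genes are close copies, and reads can be shared between them. Of all stretches of 50 bases in the longest Myh2 transcript of GENCODE M21, 26.9% also occur in a transcript of another Myh gene, and 2.06% of stretches of 150 bases do. For Myh4 the shares were 18.9% and 0.511%, and for Myh3 4.81% and 0.306%. The sources used here give neither the read length nor the treatment of reads with several matches. The antisense gene Myhas between Myh1 and Myh4 had at most 1 count in any library.

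Myh7, the slow heavy chain, was at the limit of detection. It had 2 and 1 counts in mLJZD tumours against 1 and 3 in saline tumours, a ratio of 0.848 with an exact 95% counting interval of 0.124 to 5.01. At this depth no difference was detectable.

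The developmental chains were present at low levels. Myh3, the embryonic chain, had 34 and 52 counts (1.86 and 3.13 CPM) in mLJZD tumours against 52 and 56 counts (2.64 and 2.83 CPM) in saline tumours. The groups overlapped, and the log2 fold change of -0.11 (SE 0.29) ran from -0.51 without mLJZD replicate 2 to 0.22 without mLJZD replicate 1. Myh8, the perinatal chain, had 5.68 and 5.85 CPM in mLJZD tumours against 10.3 and 10.2 CPM in saline tumours, a log2 fold change of -0.80 (SE 0.15), with groups that did not overlap.

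The myogenic factors differed from each other. Myod1 had 7 and 4 counts (0.382 and 0.241 CPM) in mLJZD tumours against 61 and 55 counts (3.10 and 2.78 CPM) in saline tumours. Its log2 fold change of -3.16 (SE 0.41) lay within its SE of that of Myh4, and ran from -3.55 without mLJZD replicate 1 to -2.87 without mLJZD replicate 2. Myog had 20 and 29 counts (1.09 and 1.75 CPM) in mLJZD tumours against 65 and 49 counts (3.30 and 2.48 CPM) in saline tumours. Its log2 fold change of -1.00 (SE 0.32) was smaller than that of Myod1, and its groups did not overlap. Pax7 had 1 count in each mLJZD library against 1 and 2 counts in saline libraries, which allows no fold.

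Fewer muscle cells and less of a transcript per muscle cell cannot be told apart in such bulk samples. In CPM the groups did not overlap for 6 of the 9 members, in a table where 64.5% of the genes tested did not overlap. The filter on low counts kept 7 of the 9 members and left out Myh7 and Pax7. The log2 fold changes of Myh4, Myh1, Myh2, Myh8, Myod1 and Myog kept their sign in all 11 alternative fits of the tumours.

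**Figure D2:**
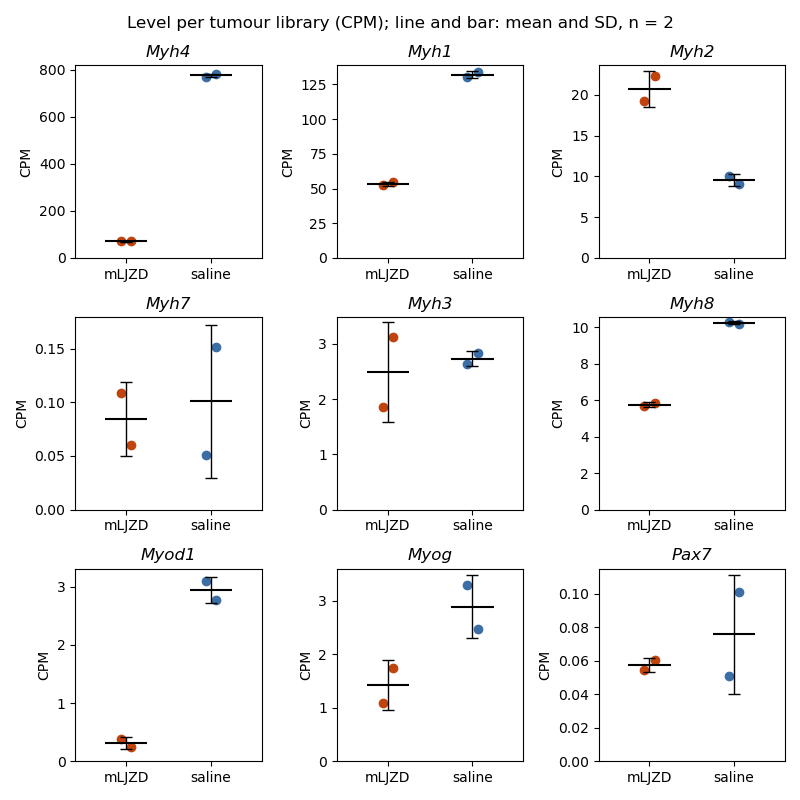
Level of each member in CPM in every tumour library, with mLJZD left and saline right in each panel; lines and bars are the mean and SD of 2 libraries. Myh4, Myh1, Myh8, Myod1 and Myog are lower in mLJZD tumours, Myh2 is higher, and the groups overlap for Myh3, Myh7 and Pax7. Axes start at 0 and differ between panels.

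Levels between genes were compared per kilobase of exon, since the genes differ in length. In mLJZD tumours the order by mean level was Myh4 (11.8 ± 0.25 CPM per kilobase, SD, n = 2), Myh1 (8.41 ± 0.23), Myh2 (2.91 ± 0.31), Myog (0.949 ± 0.31), Myh8 (0.489 ± 0.010), Myh3 (0.412 ± 0.15) and Myod1 (0.167 ± 0.054 CPM per kilobase). The libraries of Myh8 and Myh3 overlapped. In saline tumours the order was Myh4 (128.9 ± 1.15 CPM per kilobase, SD, n = 2), Myh1 (20.8 ± 0.42), Myog (1.93 ± 0.39), Myod1 (1.58 ± 0.12), Myh2 (1.35 ± 0.10), Myh8 (0.871 ± 0.0062) and Myh3 (0.452 ± 0.022 CPM per kilobase). The libraries of Myog and Myod1 overlapped there. Myh7 and Pax7 were last in both groups, with means of 0.00983 CPM per kilobase for Myh7 and 0.0098 for Pax7 in mLJZD tumours, and of 0.0117 for Myh7 and 0.013 for Pax7 in saline tumours, and their libraries overlapped with each other. Myh2 thus stood above the myogenic factors in mLJZD tumours and, by this length, below them in saline tumours. Length here merges all annotated exons of a gene. It was 7137 bases for Myh2 and 11772 for Myh8, whose longest transcripts have 6083 and 6149 bases. With transcript length both would stand higher, so their places in saline tumours, near Myod1, rest on this choice. In mLJZD tumours the gap between Myh8 and Myog and the overlap of Myh8 with Myh3 rest on it too.

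The share of each gene among the counts of the 6 heavy chains does not depend on scaling between libraries. These sums were 2774 and 2585 counts in mLJZD tumours against 18195 and 18541 in saline tumours. Myh4 made up 47.6% (exact 95% binomial interval 45.7% to 49.5%) and 44.9% (43.0% to 46.9%) in mLJZD tumours against 83.4% (82.9% to 84.0%) and 83.3% (82.8% to 83.9%) in saline tumours. Myh1 made up 34.8% ± 0.23 (SD, n = 2) in mLJZD tumours against 14.2% ± 0.15 in saline tumours. Myh2 made up 13.5% ± 1.15 in mLJZD tumours against 1.03% ± 0.087 in saline tumours.

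The developmental chains took a larger share of a smaller sum. Myh8 made up 3.75% ± 0.0023 (SD, n = 2) of the heavy chain counts in mLJZD tumours against 1.10% ± 0.019 in saline tumours. Myh3 made up 1.23% (exact 95% binomial interval 0.850% to 1.71%) and 2.01% (1.51% to 2.63%) in the mLJZD libraries against 0.286% and 0.302% in the saline libraries. Myh7 stayed under 0.1% in all 4 tumour libraries. Intervals cover counting error only. Weighted by merged exon length, which for Myh8 is well above that of its longest transcript, Myh8 made up 2.04% in mLJZD tumours against 0.572% in saline tumours. Myh4 made up 49.1% in mLJZD tumours against 84.6% in saline tumours on that scale.

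**Figure D3:**
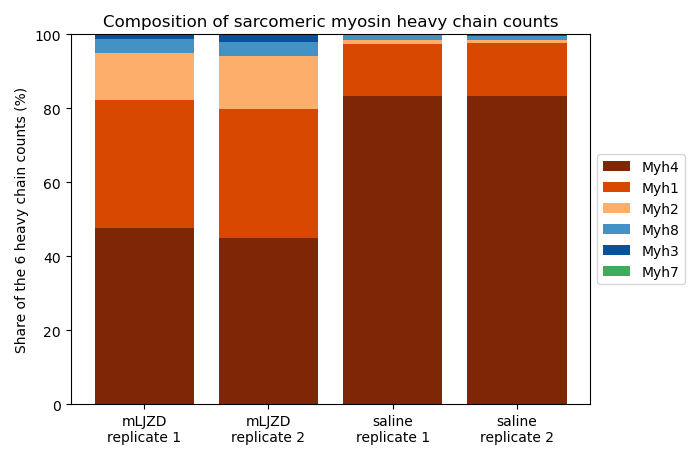
Share of each heavy chain gene in the summed counts of the 6 heavy chain genes, in percent, in each tumour library, with the mLJZD libraries left of the saline libraries. Myh4 makes up 44.9% to 47.6% of the counts in the mLJZD libraries and 83.3% to 83.4% in the saline libraries, and the slices of Myh1 and Myh2 are larger in the mLJZD libraries.

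The members were also set against other sarcomere RNA of the same library. Of 27 sarcomere genes shared by fast and slow fibres, 21 stayed under a mean of 1 CPM in both culture groups and served as a measure of muscle RNA, a choice made after seeing the data. The other 6, such as Tpm1 and Des, were measured in the cultures too. These 21 genes held 0.0352% and 0.0350% of the counts in mLJZD tumours against 0.154% and 0.153% in saline tumours. Acta1 was the largest part of this sum, with a mean of 177.4 CPM in mLJZD tumours against 812.3 CPM in saline tumours. The measure thus follows Acta1 in large part. Per 1000 counts of the 21 genes Myh4 had 204.7 and 200.1 counts in mLJZD tumours against 499.0 and 509.1 in saline tumours, a ratio of 0.402. Myod1 had 1.08 and 0.689 per 1000 in mLJZD tumours against 2.01 and 1.81 in saline tumours, a ratio of 0.465. For both genes the difference was larger than that of the summed sarcomere counts.

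On the same scale the other 5 members kept by the filter were higher in mLJZD tumours. Myh2 had 54.6 and 63.8 counts per 1000 in mLJZD tumours against 6.54 and 5.93 in saline tumours, a ratio of 9.49. Myh1 had 148.9 and 155.8 per 1000 in mLJZD tumours against 84.2 and 87.3 in saline tumours, while Myh8 had 16.1 and 16.7 in mLJZD tumours against 6.67 and 6.66 in saline tumours. Myh3 had 5.27 and 8.96 per 1000 in mLJZD tumours against 1.71 and 1.85 in saline tumours, while Myog had 3.10 and 5.00 in mLJZD tumours against 2.14 and 1.61 in saline tumours. Myh1, Myh8 and Myog were thus lower in CPM and higher per 1000 sarcomere counts. With all 27 genes as the measure the ratios of these 7 members kept their direction. The differences of Myh4 and Myod1 grew, and those of the other 5 shrank, to ratios of 6.05 for Myh2 and 1.13 for Myh1.

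**Figure D4:**
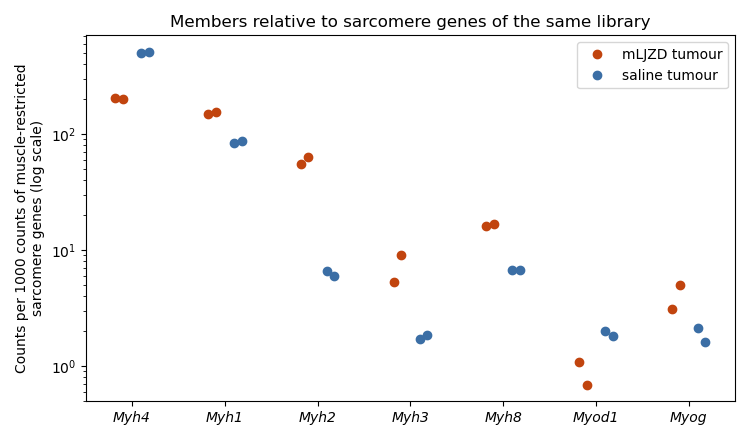
Counts of 7 members per 1000 counts of 21 sarcomere genes of the same library, on a log axis; each point is a tumour library, mLJZD left of saline. Myh4 and Myod1 are lower in mLJZD tumours, and Myh1, Myh2, Myh3, Myh8 and Myog are higher.

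Genes around the members were tested with edgeR over all 15417 genes kept by the filter, of which 31.4% were called at an adjusted p under 0.05, 15.4% higher and 16.0% lower in mLJZD tumours. The median log2 fold change of all genes tested was 0.00092. Of the 27 shared sarcomere genes, 26 fell and 0 rose (median -1.61 on the log2 scale), and Lmod2 did not pass (edgeR adjusted p = 0.466). Acta1, the actin of the thin filament, fell by 2.16 on the log2 scale (SE 0.04, edgeR adjusted p = 2.95e-16). The muscle creatine kinase gene Ckm had a log2 fold change of -3.02 (SE 0.05) and the calcium release channel gene Ryr1 of -2.59 (SE 0.07). For Tcap and Cmya5, both of the Z-disc, it was -2.33 (SE 0.11) and -2.28 (SE 0.15).

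All 19 tested fast fibre genes fell (median log2 fold change -2.17), while Tnnc2, the fast troponin C gene, was listed at 0 in every tumour library. The log2 fold change was -3.26 (SE 0.06) for Actn3, the actinin of fast fibres, and -3.22 (SE 0.06) for Mybpc2, the fast myosin-binding protein C. It was -2.89 (SE 0.07) for the calcium buffer gene Pvalb and -3.61 (SE 0.30) for the kinase gene Mylk4. Of 16 tested slow fibre genes 3 rose and 4 fell, with a median of 0.03. Tnnt1, the slow troponin T gene, had 2.68 ± 0.38 CPM (SD, n = 2) in mLJZD tumours against 1.27 ± 0.0046 CPM in saline tumours (log2 1.11, SE 0.31, edgeR adjusted p = 0.0103). Csrp3, a Z-disc protein gene of slow fibres and heart, rose by 1.14 (SE 0.20, edgeR adjusted p = 0.000284), and Ppargc1a, a coactivator of mitochondrial genes that the CT26 cultures also held, rose by 0.81 (SE 0.24). How the value of Ppargc1a holds in the alternative fits is not given here.

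Not all of the slow list moved that way. Sln, a small regulator of the sarcoplasmic calcium pump, fell by 2.19 (SE 0.25), and Ankrd2, a stretch-responsive gene, fell by 1.77 (SE 0.23). The slow troponin genes Tnni1 (log2 0.28, edgeR adjusted p = 0.505) and Tnnc1 (0.71, edgeR adjusted p = 0.0594) did not pass. The slow light chain genes Myl2 and Myl3 had at most 9 counts in a tumour library and were not tested. The call for Tnnt1 ended with DESeq2 (adjusted p = 0.0658) and without any of the 4 tumour libraries (edgeR adjusted p = 0.0516 to 0.118). The call for Csrp3 ended without mLJZD replicate 1 (edgeR adjusted p = 0.0742).

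Of 14 tested genes of embryonic muscle, fusion and regeneration 8 fell and none rose (median -0.91). Actc1, Tnnt2 and Myl4 are among the falls and are also in the cardiac list below. The median lies between Tnnt2 and Myl4, and the CT26 cultures held Tnnt2 too. Myf6, the myogenic factor of mature fibres, had 0.853 ± 0.18 CPM (SD, n = 2) in mLJZD tumours against 5.50 ± 0.63 CPM in saline tumours (log2 -2.64, SE 0.28, edgeR adjusted p = 1.60e-06). Actc1, the actin of embryonic muscle and heart, fell by 2.35 (SE 0.26), and Jsrp1 and Chrnd, genes of the calcium release complex and the nerve-muscle synapse, had log2 fold changes of -1.90 (SE 0.29) and -1.57 (SE 0.51). The call for Chrnd ended in 7 alternatives, among them DESeq2 (adjusted p = 0.124) and each tumour library left out (edgeR adjusted p = 0.0635 to 0.161), and that for Jsrp1 without either mLJZD library (edgeR adjusted p = 0.0611 and 0.0655). The fusion gene Mymk stood at 0.673 ± 0.41 CPM in mLJZD tumours and 1.01 ± 0.14 CPM in saline tumours and did not pass (edgeR adjusted p = 0.408). Its partner Mymx and the early factor Myf5 had too few counts to test. The count of genes that fell was 2 without mLJZD replicate 1 and 3 without mLJZD replicate 2.

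Of 11 tested satellite cell genes 5 fell and 1 rose (median -0.22). Des, among the falls, is also 1 of the 27 shared sarcomere genes and is in the smooth muscle list below. Des, the muscle intermediate filament gene, had a log2 fold change of -1.76 (SE 0.06), Itga7, an integrin of the muscle surface, of -1.61 (SE 0.16) and Cdh15, the cadherin of satellite cells, of -1.14 (SE 0.37), while Sdc4, a syndecan that the CT26 cultures also held at a high level, rose by 0.37 (SE 0.05). The count of falls was 3 without mLJZD replicate 1 and 2 without mLJZD replicate 2, and Sdc4 was not called without mLJZD replicate 1 (edgeR adjusted p = 0.0525). The call for Cdh15 ended with DESeq2 (adjusted p = 0.141) and without any of the 4 tumour libraries (edgeR adjusted p = 0.0792 to 0.195). Calcr and Chodl, which mark quiescent satellite cells, had at most 3 counts in a tumour library.

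Genes of muscle atrophy and denervation moved both ways, with 5 higher and 6 lower of 20 tested (median 0.10). The ubiquitin ligase genes of wasting muscle, Trim63 and Fbxo32, had log2 fold changes of -3.06 (SE 0.29) and -1.26 (SE 0.17). Chrnd, which also belongs to this list, is given above. Bnip3, a mitophagy gene also induced by hypoxia, rose by 1.14 (SE 0.05), and was measured in the cultures as well. Chrna1, a subunit of the muscle acetylcholine receptor, stood at 10.8 ± 0.39 CPM (SD, n = 2) in mLJZD tumours and 12.0 ± 1.3 CPM in saline tumours (log2 -0.11, edgeR adjusted p = 0.569). The count of falls was 2 without mLJZD replicate 1 and 3 without mLJZD replicate 2, and the call for Trim63 ended without mLJZD replicate 1 (edgeR adjusted p = 0.0590).

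Among 23 tested regulators of fibre type and partners of the myogenic factors, 10 fell and 4 rose (median -0.17). Sox6, a repressor of slow fibre genes, had 0.883 ± 0.14 CPM (SD, n = 2) in mLJZD tumours against 2.51 ± 0.60 CPM in saline tumours (log2 -1.46, SE 0.35, edgeR adjusted p = 0.00406). The log2 fold change was -0.61 (SE 0.09) for Mef2c, a partner of the myogenic factors, and -0.61 (SE 0.05) for Maf, a factor that in mouse muscle drives Myh4. The inhibitor of E-box binding Id1 fell by 0.49 (SE 0.09), while Hdac9, a deacetylase gene, rose by 0.49 (SE 0.14). Maf is also a macrophage gene. Without mLJZD replicate 1 the count of falls was 2 and without mLJZD replicate 2 it was 6. The call for Sox6 ended without saline replicate 2 and without either mLJZD library (edgeR adjusted p = 0.1057 to 0.1203), and those for Mef2c and Id1 without mLJZD replicate 1 (edgeR adjusted p = 0.0601 and 0.0592). The call for Hdac9 ended in 5 alternatives, among them all 8 libraries in 1 fit and either mLJZD library left out (edgeR adjusted p = 0.0936 to 0.124).

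**Figure D5:**
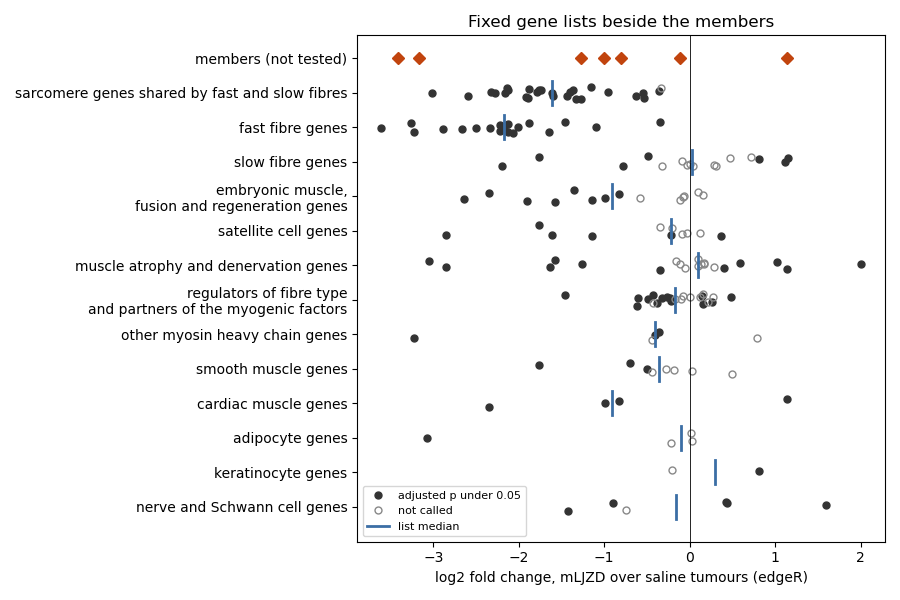
Log2 fold changes, mLJZD over saline tumours, of 7 members (diamonds, not tested) and of the tested genes of 13 lists (filled circles: edgeR adjusted p under 0.05; open circles: not called; blue bars: list median). All 19 fast fibre genes and 26 of the 27 shared sarcomere genes lie left of 0 as filled circles, while slow fibre genes spread on both sides.

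Of 5 other myosin heavy chain genes tested 3 fell and 0 rose (median -0.41). Myh9, the abundant non-muscle chain, had 876.3 ± 13 CPM (SD, n = 2) in mLJZD tumours against 1151 ± 20 CPM in saline tumours (log2 -0.36, SE 0.03, edgeR adjusted p = 2.86e-07). Myh14, a non-muscle chain of epithelia, had 37 and 51 counts in mLJZD tumours against 475 and 483 in saline tumours (log2 -3.23, SE 0.16, edgeR adjusted p = 1.03e-10), a change near that of Myh4. Unlike Myh4 it had 1006 to 1048 counts in every culture library. Myh10 fell by 0.41 (SE 0.13), a call that ended in 6 alternatives, among them DESeq2 (adjusted p = 0.0977) and either mLJZD library left out (edgeR adjusted p = 0.193 and 0.0560). The smooth muscle chain Myh11 did not pass (log2 -0.44, edgeR adjusted p = 0.250).

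Markers of neighbouring tissues gave these values beside the members, and their part in the levels was not tested. Of 8 smooth muscle genes 3 fell and none rose, and their list held 0.0173% to 0.0177% of the counts in mLJZD tumours against 0.0339% to 0.0347% in saline tumours. The list includes Des, also a striated muscle gene, with a mean of 58.5 CPM in mLJZD tumours against 203.0 CPM in saline tumours. Most of the difference in share lay in Des. Synpo2, an actin-binding protein gene (log2 -0.70, SE 0.15), and Mylk, the kinase of the smooth muscle light chain (log2 -0.49, SE 0.08), also fell. Acta2 did not pass (log2 -0.19, edgeR adjusted p = 0.137), and the call for Synpo2 ended without either mLJZD library (edgeR adjusted p = 0.0670 and 0.0622). Of 4 tested cardiac muscle genes 3 fell (Actc1, Tnnt2 and Myl4) and 1, Nppb, rose by 1.14 (SE 0.09). All that fell are also in the list of embryonic muscle genes. Tnnt2 (log2 -0.99, SE 0.18) had over 1000 counts in each culture library, and Myl4 stood at -0.83 (SE 0.16). The heart-defining genes Nppa and Myl7 were at 0 and Myh6 had at most 2 counts in all tumour libraries. Without either mLJZD library 1 of the cardiac genes fell. The cardiac list held 0.00469% to 0.00497% of the counts in mLJZD tumours and 0.00396% to 0.00419% in saline tumours. Nppb alone had a mean of 37.9 CPM in mLJZD tumours against 17.6 CPM in saline tumours, and the rest of the list was lower in mLJZD tumours.

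Of 4 tested adipocyte genes 1, Cfd, fell by 3.08 (SE 0.63), and Adipoq had no counts in mLJZD tumours and 2 and 6 in saline tumours. The adipocyte list held 0.0128% to 0.0129% of the counts in mLJZD tumours against 0.0132% to 0.0134% in saline tumours, most of it Pnpla2 and Fabp4. Of 2 tested keratinocyte genes 1, Krt10, rose by 0.81 (SE 0.22), a call that ended with DESeq2 (adjusted p = 0.0567), and Krt5 was at 0 in all tumour libraries. The keratinocyte list held 0.000645% to 0.000704% of the counts in mLJZD tumours against 0.00045% to 0.000498% in saline tumours. Of 6 tested nerve and Schwann cell genes 3 rose, with the largest values for Gap43 (log2 1.59, SE 0.18) and Mbp (0.44, SE 0.16), and 2 fell, among them Prx (-0.90, SE 0.07). Their list held 0.00669% to 0.00699% in mLJZD tumours against 0.00797% to 0.00803% in saline tumours. Without either mLJZD library no adipocyte or keratinocyte gene was called and 1 nerve gene rose, and the call for Mbp ended in 9 of 11 alternatives, DESeq2 among them (edgeR or DESeq2 adjusted p = 0.0629 to 0.230).

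In the CT26 cultures the members were absent or near it. Myh4, Myh1, Myh2, Myh8, Myog and Pax7 had no count in any of the 4 culture libraries, which allows up to 0.0602 CPM in cultures with mLJZD serum and 0.0658 CPM in cultures with control serum at 3 counts per group. Myh3 had 0 and 1 counts with mLJZD serum and 0 and 6 with control serum, Myh7 none with mLJZD serum and 3 and 0 with control serum, and Myod1 none with mLJZD serum and 1 and 0 with control serum. None of the 9 was among the 13299 genes that the filter kept for edgeR's test of mLJZD serum against control serum. With no filter 3 could be tested, of which 0 were called and 0 had an unadjusted p under 0.05.

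The genes with the pattern most like Myh4 and Myh2 over the 8 libraries were found among 13498 genes with an established symbol, by the root mean square difference of centred log2 CPM. This likeness is a description, and for both it rests in part on the counts of 0 in the cultures. With such counts it also depends on the level in tumours, so genes of like CPM rank near each other. Nearest to Myh4 were Acta1 (0.63), Tnnt3 (1.01), Mybpc2 (1.01), Ckm (1.02) and the non-coding RNA gene H19 (1.03). Tnnt3 and Mybpc2 are fast fibre genes, Acta1 and Ckm are shared by fast and slow fibres, and H19 is abundant in muscle and in embryonic tissue. Nearest to Myh2 were the globin gene Hbb-bs (0.06), the leukocyte receptor genes Cd300lf (0.12), Fcrl6 (0.18) and Lilrb4a (0.20), and the adhesion gene Alcam (0.21). None of the 5 genes nearest to Myh2 is in the fast or slow fibre lists. All 5 were close to Myh2 in level, with means of 16.7 to 21.5 CPM in mLJZD tumours and 9.67 to 12.6 CPM in saline tumours. Myh2 had 20.7 CPM over both mLJZD libraries and 9.60 CPM over both saline libraries. The absence of fibre genes among the 5 thus says nothing on the fibres that hold Myh2.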

How the data were processed

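RNA of 4 tumour and 4 culture libraries was read from the table of raw counts per gene that the authors deposited. Per the submitters' processing notes the tools were featureCounts 2.0.3, SAMtools 1.14, HISAT2 2.2.1, FastQC 0.12.1 and Trim Galore, and the build GRCm39. The sources used here give no annotation release, strand setting or read length. Symbols and exon lengths came from GENCODE M21 (GRCm38) by identifier, naming 52029 of 56953, and promoter windows from RefSeq (GRCm38.p6).

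The quasi-likelihood F test of edgeR 4.0.16 (R 4.3.3, two-sided, TMM, filterByExpr) ran on the 4 libraries of a comparison. A call is an adjusted p under 0.05 after the Benjamini-Hochberg method across the tested table. Each SE comes from the F statistic, as the size of the log2 value over root F. Members and lists were chosen with earlier results of these data known. Named genes are the members, per list up to 4 called genes with the largest change and at least 1 CPM in the higher group plus up to 2 called against the list, and the 5 genes nearest to Myh4 and to Myh2. Other genes named, such as Tnni1, Tnnc1, Ppargc1a, Mymk, Chrna1, Myh11, Acta2, Krt18, Epcam and those at 0, were picked after their values were seen. A few genes that the rule names are not reported here. An exact permutation test of 2 against 2 libraries cannot go below 0.333. Alternatives were DESeq2 1.42.0, other scalings, no filter, a replicate block, 1 fit of 8 libraries and leaving out each library. The fits were tested on simulated data.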

Additional observations from a re-analysis of the deposited data

How the results depend on the processing

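Leaving out an mLJZD library moved counts most. Over all genes 4835 were called, and 1087 to 3536 without 1 tumour library, the lowest without mLJZD replicate 1 and 1974 without mLJZD replicate 2. The 100 calls over all lists became 58 to 89. Falls ran from 2 to 7 for embryonic muscle genes, 2 to 5 for satellite cell genes, 2 to 6 for atrophy genes, 2 to 9 for regulators, 1 to 3 for cardiac genes and 0 to 1 for adipocyte genes, and rises from 0 to 1 for keratinocyte genes (0 with DESeq2) and 1 to 2 for nerve genes. The log2 fold change of Myh3 ran from -0.51 to 0.22 and that of Myog from -1.35 to -0.70. Per kilobase the share differences, mLJZD minus saline, were 21.4 percentage points for Myh1, 11.2 for Myh2 and 1.46 for Myh8. With all 27 sarcomere genes as the measure the ratios were 0.256 for Myh4, 1.13 for Myh1, 6.05 for Myh2, 1.57 for Myh8 and 0.297 for Myod1, and with Acta1 alone 0.419 for Myh4, 1.86 for Myh1 and 2.57 for Myh8. Acta1 is the largest part of the main measure, so the ratios with Acta1 alone are no independent check. Of 51 named genes other than the members 23 lost their call in at least 1 alternative and none turned. The cause of these losses was not tested.

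The labels give the same replicate numbers to both tumour groups without saying that they pair. Deviations of the same number correlated at -0.104 over genes. With the replicate block 4461 genes and 97 list genes were called, and the log2 fold change of Myh4 was -3.42. With the saline numbers crossed, a pairing added after seeing the data, the replicate block gave 5411 genes and 102 list genes.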
